A study of Mus musculus with 18 samples.

Results

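Lipid-associated macrophage genes were followed in adipose tissue of mice that lack the COP9 signalosome subunit CSN8 in adipocytes. The set held 10 genes of the 55487 in the count tables, chosen by name as lipid-handling macrophage markers described as near absent in control fat, for the size of their rise in the knockout relative to *Adgre1*, with results of these data known: *Trem2*, *Gpnmb*, *Itgax*, *Cd9*, *Spp1*, *Mmp12*, *Lgals3*, *Atp6v0d2*, *Lipa* and *Fabp5*. Since the genotype difference entered that choice, its values are given here as a description without a test. Csn8AKO mice carried Csn8 f/f together with Cre driven by the adiponectin promoter, which removes part of the gene in adipocytes and leaves it intact in macrophages and other cells. Ctrl mice were Csn8 f/f littermates without Cre. All were male, chow-fed and fasted for 4 h. Subcutaneous white adipose tissue (sWAT) came from mice aged 12 weeks, with 4 Ctrl and 4 Csn8AKO samples, and brown adipose tissue (BAT) from mice aged 4 weeks, with 5 of each. Depot and age therefore cannot be told apart.

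Lipid-associated macrophages gather where adipocytes enlarge or die. They sense lipid and debris through the surface receptor TREM2, take both up, and digest cholesteryl esters and triglycerides in acidified lysosomes, while fatty-acid-binding proteins carry the lipid through the cytosol. Their usual marker genes also include secreted proteins that act on the matrix and on cell adhesion. *Adgre1*, which encodes the pan-macrophage surface protein F4/80, served as the common reference for macrophage RNA. In bulk tissue, fewer cells of a type and less RNA per cell cannot be told apart.

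Library totals ran from 15835721 to 23109603 counts in sWAT and from 26658593 to 66719937 in BAT. *Cops8*, the files' symbol for *Csn8*, was counted over the whole gene. Its level in sWAT was 33.9, 36.2, 34.8 and 35.0 CPM in Ctrl (read counts scaled to the library size, here with edgeR's TMM factors within each depot) and 33.0, 29.2, 30.7 and 36.0 in Csn8AKO. In BAT it was 36.5, 39.0, 40.1, 37.1 and 44.6 CPM in Ctrl against 28.2, 29.7, 34.5, 31.4 and 36.9 in Csn8AKO, so the groups overlapped in both depots. The fitted difference was -0.12 ± 0.11 (SE) on the log2 scale in sWAT and -0.30 ± 0.09 in BAT (adjusted p = 0.0211, edgeR quasi-likelihood test). The BAT call was lost with library sizes alone as the scale (-0.16, adjusted p = 0.388) and without Ctrl replicate 5, Csn8AKO replicate 1 or Csn8AKO replicate 4 (adjusted p from 0.0525 to 0.0579), and a gene-level count also reads undeleted exons and cells without Cre. The 4 sWAT libraries with over 15% of counts in ribosomal RNA genes were Ctrl replicates 2 and 3 and Csn8AKO replicates 3 and 4, the last at 47.8%. Summed B cell marker CPM stood at 180 in sWAT Ctrl replicate 1 and 477 in Csn8AKO replicate 2, against 4.90 to 15.5 in the other sWAT libraries. Brown adipocyte markers summed to at least 3895 CPM in BAT libraries and to at most 141 CPM in sWAT libraries.

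The label under which the genes were grouped, near absent in control fat, held for a minority of them. A mean under 1 CPM in Ctrl was seen for 1 of the 10 genes in sWAT (*Spp1*) and 4 of the 10 in BAT (*Trem2*, *Spp1*, *Mmp12* and *Atp6v0d2*). At the other end stood *Lgals3*, *Lipa* and *Fabp5* in sWAT and *Lipa* and *Fabp5* in BAT, each above 50 CPM on average in Ctrl. On a length-scaled basis, the order of Ctrl sWAT means ran from *Lgals3* (33.8 ± 4.19 CPM per kb, SD, n = 4) over *Fabp5* (16.2 ± 10.3), *Lipa* (8.57 ± 0.265), *Cd9* (7.41 ± 1.15) and *Gpnmb* (5.00 ± 1.54) to *Itgax* (1.41 ± 0.478). Below these came *Trem2* (0.873 ± 0.305), *Mmp12* (0.71 ± 0.572), *Atp6v0d2* (0.517 ± 0.159) and *Spp1* (0.15 ± 0.143). The neighbours *Fabp5* and *Lipa*, *Lipa* and *Cd9*, *Trem2* and *Mmp12*, and *Mmp12* and *Atp6v0d2* lay within 1 SD of each other. The lengths are those of all annotated exons, so the order of genes depends on the annotation as well. In Ctrl BAT, *Fabp5* (15.9 ± 2.99 CPM per kb, SD, n = 5) and *Lipa* (13.4 ± 4.77) led, within 1 SD of each other. *Cd9* (1.98 ± 0.296) and *Lgals3* (1.30 ± 0.315) followed, and the other 6 genes were between 0.0222 and 0.295 CPM per kb.

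Control BAT held less of most of these transcripts than control sWAT. The level in control fat and the rise within each depot both entered the choice of genes, so this contrast is given as a description without a test of the members. For 7 of the 10 genes all BAT controls were below all sWAT controls, beside 22.1% of the 22509 genes fitted, and nothing is read from that count. The edgeR fit over both depots called 25.7% of all genes lower in BAT and 25.9% higher. The macrophage reference was lower too, with *Adgre1* at -2.50 ± 0.16 (log2 difference, SE) and *Cd68*, a lysosomal macrophage protein, at -2.60 ± 0.19. *Mmp12* (-4.88 ± 0.67), *Lgals3* (-4.61 ± 0.20), *Trem2* (-4.12 ± 0.41), *Gpnmb* (-3.99 ± 0.37) and *Atp6v0d2* (-3.30 ± 0.28) had fitted differences larger than that of *Adgre1*. *Itgax* (-2.17 ± 0.25) and *Cd9* (-1.81 ± 0.20) had smaller ones. *Spp1* had 10 counts or fewer in each control library, passed the filter on low counts through the Csn8AKO libraries and was not kept in a fit of the controls alone. *Lipa* was at 0.74 ± 0.23, with overlap, and at 0.51 with library sizes alone as the scale, which shifted the median of all genes by -0.24. For *Fabp5* the difference was 0.06 ± 0.31, and 0.63 without sWAT Ctrl replicate 2. As a percentage of *Adgre1* counts in the same library, a ratio not scaled by length and so compared here between libraries alone, *Lipa* was at 150% to 173% in Ctrl sWAT and 1247% to 2455% in Ctrl BAT, whereas *Lgals3* was at 152% to 209% in sWAT and 33.6% to 49.8% in BAT.

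With CSN8 lost from adipocytes, most of the 10 transcripts rose, but to very unequal extents. Relative to *Adgre1*, the measure for which they had been chosen, not all of them rose. All 10 had a higher fitted level in Csn8AKO sWAT and 9 had one in BAT, the exception being *Lipa*. The groups did not overlap for 8 genes in sWAT and 9 in BAT, where 5.80% and 10.1% of all tested genes were separated upward. By the edgeR call 9 were higher in each depot, *Fabp5* missing in sWAT and *Lipa* in BAT, beside 2.30% of all genes called higher and 3.00% called lower in sWAT and 16.0% higher and 15.8% lower in BAT. Nothing is read from those counts, because the same contrast selected the genes. In BAT *Trem2*, *Spp1*, *Mmp12* and *Atp6v0d2* had too few Ctrl libraries above the filter on low counts, as had *Spp1* and *Mmp12* in sWAT. They passed it only with the Csn8AKO libraries and are included in the counts and medians of those depots. With library sizes alone as the scale the share of higher genes among all calls was 24.4% in place of 43.4% in sWAT and 66.7% in place of 50.3% in BAT, with a shift of 0.13 in the BAT median. The median log2 fold change of the 10 genes was 1.81 in sWAT and 3.70 in BAT, next to 0.03 and 0.01 over all genes. *Adgre1* itself was 1.31 ± 0.14 higher in sWAT (adjusted p = 0.0018) and 1.63 ± 0.16 higher in BAT (adjusted p = 6.3e-06). Without the 4 sWAT libraries rich in ribosomal RNA, *Adgre1* was 1.23 higher with an adjusted p of 0.528.

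**Figure D1:**
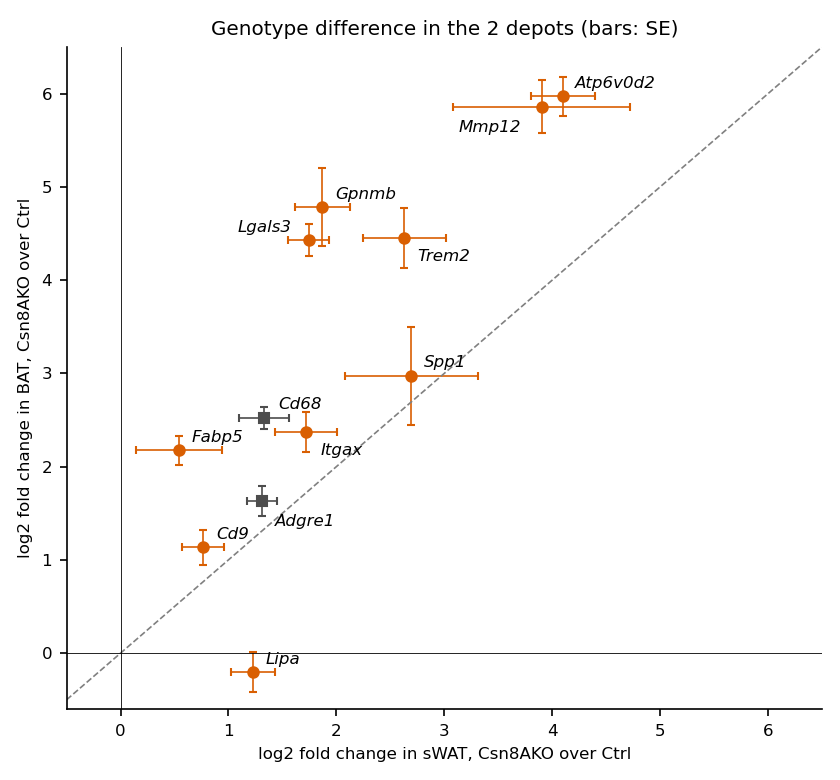
Log2 fold change of Csn8AKO over Ctrl in sWAT (x axis) and in BAT (y axis) for the 10 genes (circles) and the references *Adgre1* and *Cd68* (squares); bars are SE and the dashed line marks equal change. *Atp6v0d2* and *Mmp12* sit highest, at 5.97 and 5.86 in BAT, and *Lipa* is the single gene under the line, at -0.20 in BAT.

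Among the surface proteins, *Trem2* and *Gpnmb* stood out. *Trem2* encodes the lipid-sensing receptor itself. Its level in sWAT was 2.17, 5.11, 5.57 and 4.41 CPM in Ctrl and 27.5, 19.9, 44.1 and 15.3 CPM in Csn8AKO. In BAT it was 0.155, 0.186, 0.177, 0.517 and 0.108 CPM in Ctrl, from 6 to 28 counts, and 5.68, 4.42, 4.02, 5.79 and 5.45 CPM in Csn8AKO. Every Csn8AKO library exceeded every Ctrl library of its depot, and in BAT the knockout libraries stood near the CPM of the sWAT controls, on a scale set within each depot. The log2 fold change was 2.63 ± 0.39 (SE) in sWAT and 4.45 ± 0.32 in BAT.

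*Gpnmb* encodes a transmembrane glycoprotein of phagocytes under lysosomal load. In sWAT it went from 18.2, 37.8, 33.2 and 41.0 CPM in Ctrl to 114, 137, 138 and 87.7 CPM in Csn8AKO. In BAT the Ctrl libraries had 1.5, 1.76, 1.5, 3.95 and 0.883 CPM and the Csn8AKO libraries 48.9, 33.0, 48.9, 54.1 and 79.8 CPM. Ctrl replicate 4 was the highest BAT control for *Trem2* and for *Gpnmb*, still under all Csn8AKO libraries. This amounted to a log2 fold change of 1.87 ± 0.25 in sWAT and 4.78 ± 0.42 in BAT.

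*Itgax* encodes CD11c, an integrin subunit shared by dendritic cells and lipid-laden macrophages. Its sWAT levels were 10.1, 5.77, 6.22 and 4.98 CPM in Ctrl and 19.1, 33.6, 20.6 and 16.2 CPM in Csn8AKO. The highest library of each genotype was the one with B cell markers, and the same 2 libraries had the highest summed dendritic cell markers of their genotype, 114 and 138 CPM against 48.6 to 61.1 CPM in the others. Without both libraries the log2 fold change was 1.72, and with all libraries it was 1.72 ± 0.29. In BAT, *Itgax* ran from 0.920 to 1.99 CPM in Ctrl and from 4.93 to 8.55 CPM in Csn8AKO, a log2 fold change of 2.37 ± 0.21. Dendritic cell genes rose for 4 of 8 in BAT, among them *Batf3* (1.83 ± 0.37, adjusted p = 0.00179), *Flt3* (1.15 ± 0.28) and *Clec9a* (0.67 ± 0.16), with a summed level of 44.0 to 59.9 CPM in Ctrl and 50.3 to 64.4 CPM in Csn8AKO, and their part in the *Itgax* values was not tested. *Cd9*, a tetraspanin that organizes membrane complexes, rose least of the surface group. It ran from 12.9 to 18.4 CPM in Ctrl and from 17.9 to 30.6 CPM in Csn8AKO in sWAT, where the groups overlapped, and from 3.39 to 4.68 and from 5.09 to 11.5 CPM in BAT. The log2 fold changes were 0.77 ± 0.19 and 1.13 ± 0.19. *Cd9* overlaps 2 antisense or processed transcripts with at most 35 counts in any library, and whether counting used strand was not given in the sources used here.

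Of the secreted proteins, *Mmp12*, which encodes macrophage elastase, had the largest change. In sWAT it was at 0.362, 9.77, 7.11 and 3.32 CPM in Ctrl and 111, 73.1, 75.5 and 46.5 CPM in Csn8AKO. In BAT the 5 Ctrl libraries held 5 to 14 counts each, or 0.0901 to 0.258 CPM, and the Csn8AKO libraries 10.2, 6.43, 8.35, 12.9 and 9.22 CPM. The groups were far apart in both depots, and the sWAT controls spread widely, from 8 to 193 counts. The log2 fold change was 3.90 ± 0.82 in sWAT and 5.86 ± 0.28 in BAT, and the sWAT value was 5.68 without the 4 libraries rich in ribosomal RNA.

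Promoter sequence was at hand for 8 of the 10 genes in RefSeq (GRCm38.p6), all but *Fabp5* and *Atp6v0d2*, in 10 windows of the 250 bases before the annotated start. TGAGTCA, the letters bound by AP-1 factors, was present on either strand in 2 of the 8 genes, *Itgax* and the second start of *Mmp12*, and in 4.46% of all 32851 windows. GAGGAAGT, a form read by ETS factors, was present in *Mmp12* and *Spp1* and in 2.44% of all. TCATGTG, a form read by MITF, was present in *Mmp12* and in 3.25% of all, and CACGTG, the core of the lysosomal gene motif, was present in none of the members and in 6.02% of all. The motifs were picked after the data had been seen, no 2 of them share letters in these windows, and a match describes letters only. *Mmp12* is shown with both starts because it had the second largest change in both depots among the members, and *Itgax* because it holds the same AP-1 letters. Capitals mark TGAGTCA, and all 3 windows lie on the plus strand, at chr7:128129300-128129549, chr9:7344147-7344396 and chr9:7347124-7347373.
Itgax: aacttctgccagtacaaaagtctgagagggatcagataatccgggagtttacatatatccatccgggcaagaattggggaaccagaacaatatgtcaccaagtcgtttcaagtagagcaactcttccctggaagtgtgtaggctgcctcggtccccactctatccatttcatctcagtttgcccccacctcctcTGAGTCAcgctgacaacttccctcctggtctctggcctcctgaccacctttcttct
Mmp12 first start: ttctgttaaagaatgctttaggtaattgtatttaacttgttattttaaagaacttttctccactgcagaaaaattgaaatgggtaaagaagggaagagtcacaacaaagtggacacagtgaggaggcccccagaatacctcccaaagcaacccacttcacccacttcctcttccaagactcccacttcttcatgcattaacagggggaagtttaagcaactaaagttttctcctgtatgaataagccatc
Mmp12 second start: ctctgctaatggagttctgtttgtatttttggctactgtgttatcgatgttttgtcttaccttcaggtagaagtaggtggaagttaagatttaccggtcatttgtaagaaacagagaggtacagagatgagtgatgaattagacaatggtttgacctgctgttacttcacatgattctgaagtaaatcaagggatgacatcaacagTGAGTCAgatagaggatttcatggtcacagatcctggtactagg
The AP-1 letters begin 56 bases before the start in *Itgax* and 44 bases before the second start in *Mmp12*, whose MITF-type letters begin 83 bases before it on the minus strand.

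*Lgals3* encodes galectin-3, also known as the macrophage surface antigen MAC2. It was at 60.1, 73.9, 55.9 and 61.0 CPM in Ctrl sWAT and at 212, 171, 287 and 169 CPM in Csn8AKO sWAT. In BAT it was at 2.87, 2.20, 1.63, 3.10 and 2.24 CPM in Ctrl and at 58.0, 39.7, 48.5, 54.9 and 56.7 CPM in Csn8AKO. The genotypes were separated in both depots, and the BAT controls lay close together. *Lgals3* thus had a log2 fold change of 1.74 ± 0.19 in sWAT and 4.43 ± 0.17 in BAT.

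*Spp1*, which encodes osteopontin, an adhesive cytokine often listed first among markers of these cells, was scarce throughout. Its counts in sWAT were 2, 4, 10 and 2 in Ctrl and 34, 42, 32 and 8 in Csn8AKO. In BAT they were 2, 0, 6, 4 and 2 in Ctrl and 14, 14, 16, 28 and 14 in Csn8AKO. The highest level was 2.21 CPM, in 1 Csn8AKO sWAT library. The fitted log2 fold changes of 2.69 ± 0.62 and 2.97 ± 0.53 rest on control counts of which all but 2 were at or under 4, and they depend on the added prior count. Without Ctrl replicate 3 the sWAT value was 3.51. These counts are all even, as were most low counts in the files, so a count of 2 may be a single read pair.

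The lysosomal pair behaved differently from one another. *Atp6v0d2* encodes a cell-type-restricted d2 subunit of the vacuolar proton pump that acidifies lysosomes. In sWAT it was at 0.905, 1.92, 1.54 and 1.25 CPM in Ctrl and at 25.3, 21.7, 32.7 and 16.5 CPM in Csn8AKO. In BAT it had 4 to 10 counts in each Ctrl library, 0.0968 to 0.169 CPM, and 8.03, 7.10, 7.35, 8.30 and 10.7 CPM in Csn8AKO. The groups lay far apart in both depots, and the lowest Csn8AKO library was well above the highest control. The log2 fold change was 4.10 ± 0.30 in sWAT and 5.97 ± 0.21 in BAT, where it rests on the few Ctrl counts given above.

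*Lipa* encodes lysosomal acid lipase, which splits cholesteryl esters and triglycerides and is present in most cells. It was at 55.7, 58.6, 58.0 and 60.0 CPM in Ctrl sWAT and at 147, 99.4, 192 and 104 CPM in Csn8AKO sWAT, with no overlap. In BAT the Ctrl libraries had 90.9, 82.3, 52.2, 87.5 and 142 CPM and the Csn8AKO libraries 95.9, 75.6, 77.4, 79.4 and 67.1 CPM, all within the Ctrl range. For *Lipa* the log2 fold change was 1.22 ± 0.20 in sWAT and -0.20 ± 0.21 in BAT. Across the alternative fits the BAT value ran from -0.35 to 0.01. Bulk counts do not show which cells held *Atp6v0d2* or *Lipa*. In the study's RT-PCR of fractionated epididymal fat, from mice older than those sequenced here, both were significantly higher in Csn8AKO adipocytes. Both also had a trend upward in stromal vascular cells. For adipocytes from sWAT the study's text names *Atp6v0d2* among the increased genes and does not name *Lipa*.

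*Fabp5*, which encodes the epidermal-type fatty-acid-binding protein found in macrophages and also in adipocytes, had the reverse depot pattern. In sWAT it was at 31.8, 112, 41.0 and 46.4 CPM in Ctrl and at 77.1, 55.0, 111 and 93.9 CPM in Csn8AKO. Ctrl replicate 2 was above every Csn8AKO library, while the other 3 controls were below them all. In BAT it was at 66.1, 60.4, 65.1, 40.9 and 51.0 CPM in Ctrl and at 291, 304, 260, 237 and 188 CPM in Csn8AKO, fully separated. The log2 fold change was 0.54 ± 0.40 in sWAT and 2.17 ± 0.15 in BAT, and the sWAT value was 1.08 without Ctrl replicate 2. The difference of depots in these genotype effects was not tested for any member.

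**Figure D2:**
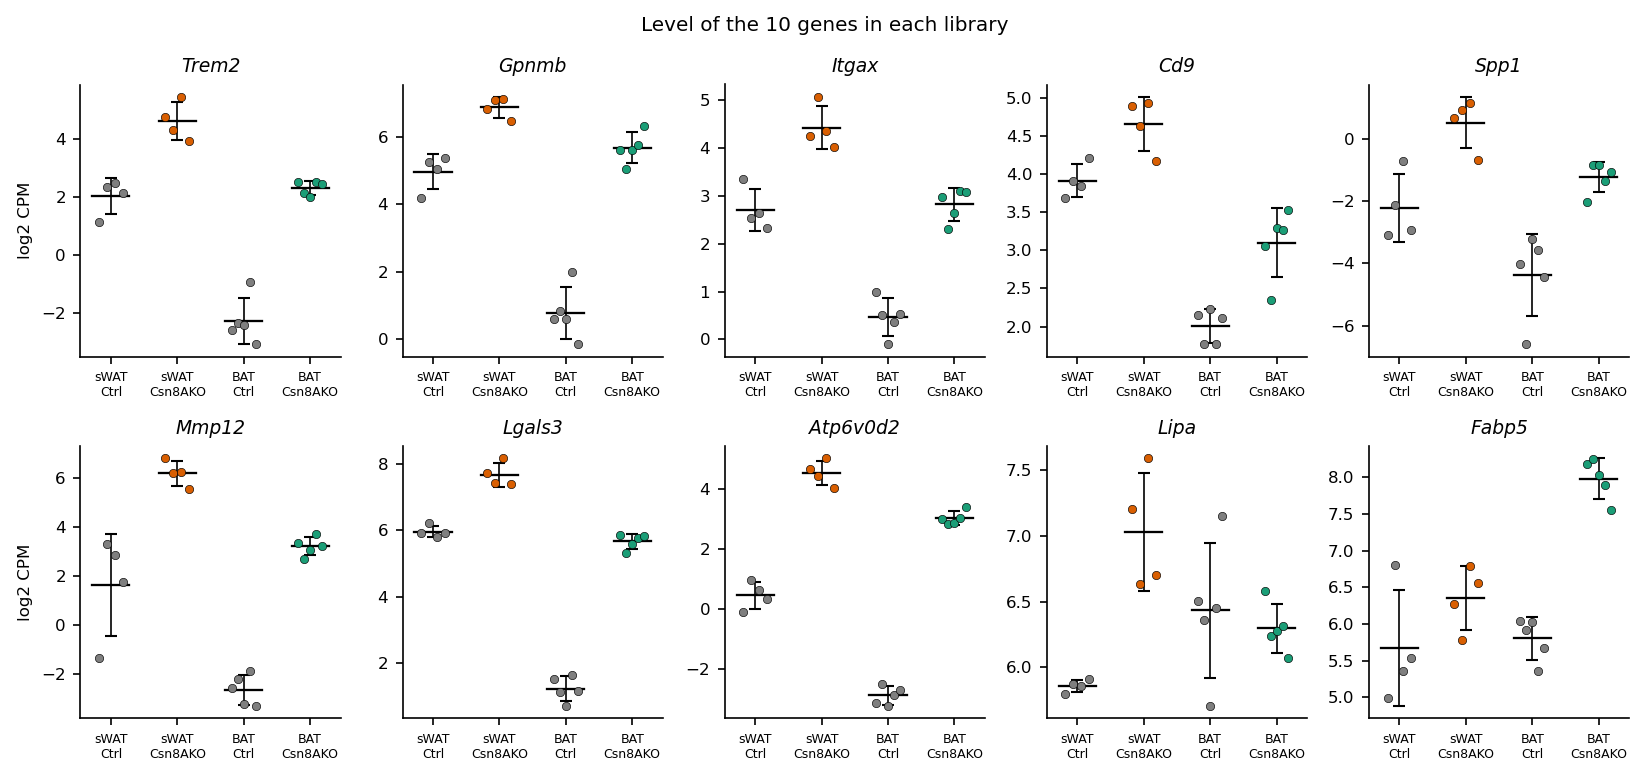
Level of each of the 10 genes as log2 CPM (y axis) in every library, by depot and genotype; points are libraries, the line is the group mean and bars are SD. Ctrl BAT is the lowest group for 8 of the genes, *Lipa* does not separate by genotype in BAT, and for *Fabp5* 1 Ctrl sWAT library lies level with the highest Csn8AKO library.

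Set against *Adgre1* in the same library, some genes outran this reference and others did not, a split that depends on the reference chosen. The ratio to *Adgre1* had a higher mean in Csn8AKO for 7 of the 10 genes in sWAT and 8 in BAT, and the libraries were separated upward for 3 and 6 of them. *Atp6v0d2* was at 2.86%, 5.52%, 4.66% and 3.17% of *Adgre1* in Ctrl sWAT and at 26.2%, 30.7%, 33.1% and 19.5% in Csn8AKO. In BAT it was at 1.60% to 2.97% in Ctrl and 39.7% to 53.4% in Csn8AKO. The excess, the log2 change of the ratio, was 2.78 ± 0.28 (SE) in sWAT and 4.25 ± 0.17 in BAT for *Atp6v0d2*, and 3.26 ± 1.05 and 4.19 ± 0.26 for *Mmp12*. *Trem2* had an excess of 1.29 ± 0.39 in sWAT and 2.94 ± 0.39 in BAT. These 3 were the genes whose ratio separated the genotypes in both depots in the upward direction.

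*Gpnmb* and *Lgals3* differed between depots in this measure. *Gpnmb* was at 56.1% to 107% of *Adgre1* in Ctrl sWAT and 104% to 193% in Csn8AKO, which overlapped, but at 15.5% to 63.4% and 213% to 398% in BAT. Its excess was 0.61 ± 0.29 in sWAT and 3.24 ± 0.39 in BAT. *Lgals3* was at 152% to 209% and 199% to 291% in sWAT, again overlapping, and at 33.5% to 49.8% and 256% to 309% in BAT. Its excess was 0.41 ± 0.15 in sWAT and 2.78 ± 0.11 in BAT. *Itgax* had an excess of 0.41 ± 0.42 in sWAT and 0.70 ± 0.13 in BAT.

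The remaining genes had smaller or negative values, or overlapped. *Cd9* dropped from 39.5%, 42.3%, 42.9% and 46.0% of *Adgre1* in Ctrl sWAT to 30.9%, 34.9%, 31.0% and 21.2% in Csn8AKO, with no overlap, an excess of -0.56 ± 0.16. In BAT its excess was -0.57 ± 0.29, with overlap. *Lipa* had an excess of -0.13 ± 0.15 in sWAT and -1.80 ± 0.20 in BAT, where it went from 1248% or more of *Adgre1* in every Ctrl library to at most 488% in Csn8AKO. The corresponding values of *Fabp5* were -0.63 ± 0.41 and 0.52 ± 0.30, and those of *Spp1* were 1.44 ± 0.71 and 1.49 ± 0.75, with overlap in both depots. Over the 10 genes the median excess was 0.51 in sWAT and 2.13 in BAT. With *Cd68* as the reference, which had an excess of 0.86 ± 0.14 over *Adgre1* in BAT, the BAT median was 1.28. The sWAT median was then 0.55. Outrunning *Adgre1* in BAT was not particular to the members, as *Lyz2* rose by 2.81 ± 0.18, though *Csf1r* rose by 1.07 ± 0.11. The fitted BAT rises of *Itgax* (2.37) and *Fabp5* (2.17) were above that of *Adgre1* (1.63) but below that of *Cd68* (2.52). Those of *Trem2*, *Gpnmb*, *Spp1*, *Mmp12*, *Lgals3* and *Atp6v0d2* were above both.

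**Figure D3:**
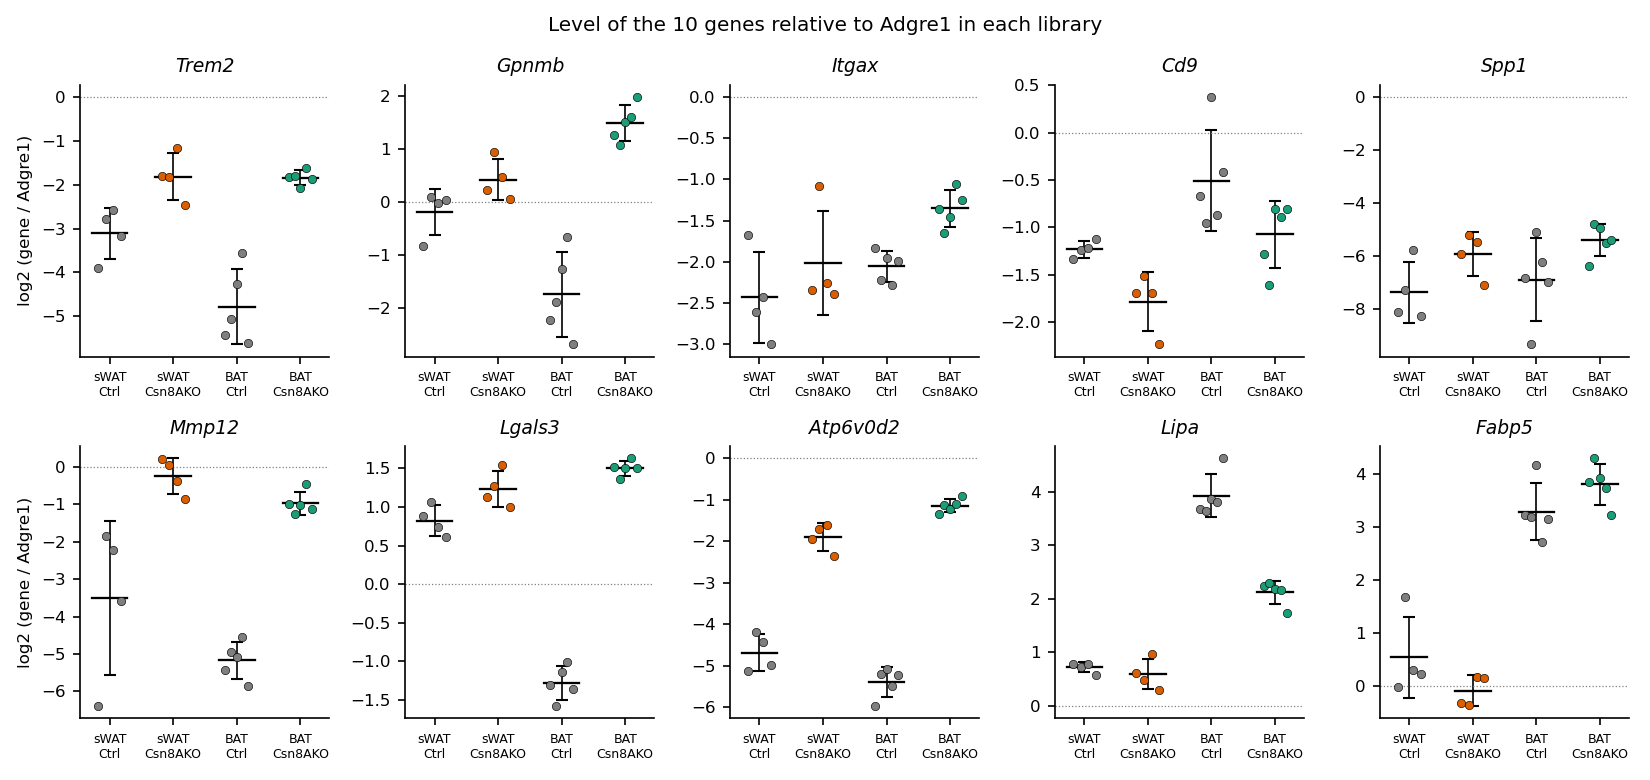
Log2 ratio of each gene to *Adgre1* (y axis) in every library, by depot and genotype; points are libraries, the line is the group mean, bars are SD and the dotted line marks equal counts, not scaled by length. *Trem2*, *Mmp12* and *Atp6v0d2* are separated upward in both depots, and *Lipa* in BAT and *Cd9* in sWAT are separated downward.

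Of 31 comparison genes with a call in sWAT, leaving out 1 library at a time lost between 1 (Csn8AKO replicate 2) and 17 (Ctrl replicate 2 or Csn8AKO replicate 3), and 12 kept theirs each time, among them *Adgre1*, *Cd68*, *Lyz2*, *Capg*, *Cd44*, *Nceh1*, *Soat1*, *Tcirg1* and *Tspan4*. *Timp1*, *Mrc1* and *Gusb* lost theirs in 7 of these sWAT fits and *Syk* in 6. *Mitf*, *Tnfrsf11a*, *Dcstamp*, *Itgb2*, *Pnpla2* and *Cfd* did so in 5. All 31 lost the call without the 4 libraries rich in ribosomal RNA, with 2 samples left in each group. With library sizes alone as the scale 15 of the 31 lost it, *Soat1*, *Tcirg1* and *Tspan4* included. Of 71 such genes in BAT between 0 and 6 were lost on leaving out 1 library, with *Pnpla2* lost in 7 of the 10 cases. With all 4 groups in one fit 11 of the 71 were lost, among them *Atp6v0d1*, *Tfeb*, *Pnpla2*, *Cd4* and *Flt3*, and *Lgals8* was lost with library sizes alone. No sign changed in these fits.

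Comparison with the paralog or partner of each member placed these levels on a length-scaled basis. The length is that of all annotated exons of a gene, so a percentage between genes depends on the annotation as well. *Atp6v0d1*, the d1 subunit found in most cells, was 0.08 ± 0.15 higher in Csn8AKO sWAT (log2, adjusted p = 0.828) and 0.33 ± 0.09 higher in BAT (adjusted p = 0.00897). *Atp6v0d2* was at 0.879% to 1.40% of *Atp6v0d1* in Ctrl sWAT and 12.0% to 24.1% in Csn8AKO, and at 0.105% to 0.214% and 5.99% to 9.33% in BAT. The d1 form thus stayed the more abundant one in every library. Of the other 17 proton pump subunits and accessory proteins, 1 was called higher in sWAT, *Tcirg1*, the osteoclast-type a3 subunit (0.88 ± 0.15, adjusted p = 0.0112), and 7 in BAT, among them *Atp6ap1* (0.43 ± 0.09, adjusted p = 0.00298), *Tcirg1* (0.56 ± 0.10) and *Atp6v0c* (0.69 ± 0.15). The median of the 17 was 0.18 in sWAT and 0.22 in BAT.

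*Fabp4*, the adipocyte fatty-acid-binding protein, did not pass the test in either depot (-0.49 ± 0.31 and 0.15 ± 0.11). *Fabp5* was at 0.950% to 2.40% of *Fabp4* in Ctrl sWAT and 2.06% to 3.63% in Csn8AKO, and at 1.18% to 1.92% and 5.16% to 8.18% in BAT. *Lgals1*, a galectin gene with a higher length-scaled level than *Lgals3*, did not pass either (0.09 ± 0.27 and -0.31 ± 0.17). Of the other listed genes, the galectins *Lgals4*, *Lgals8*, *Lgals9* and *Lgals12* and the ligand gene *Lgals3bp*, *Lgals12*, the adipocyte galectin, fell in sWAT (-1.44 ± 0.27, adjusted p = 0.0149). In BAT *Lgals3bp*, whose product binds galectin-3, rose (0.82 ± 0.14) and *Lgals8* fell (-0.29 ± 0.07). *Lgals3* moved from 4.66% to 6.11% of *Lgals1* in Ctrl sWAT to 12.0% to 24.0% in Csn8AKO, and from 0.258% to 0.620% up to 6.02% to 15.3% in BAT.

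**Figure D4:**
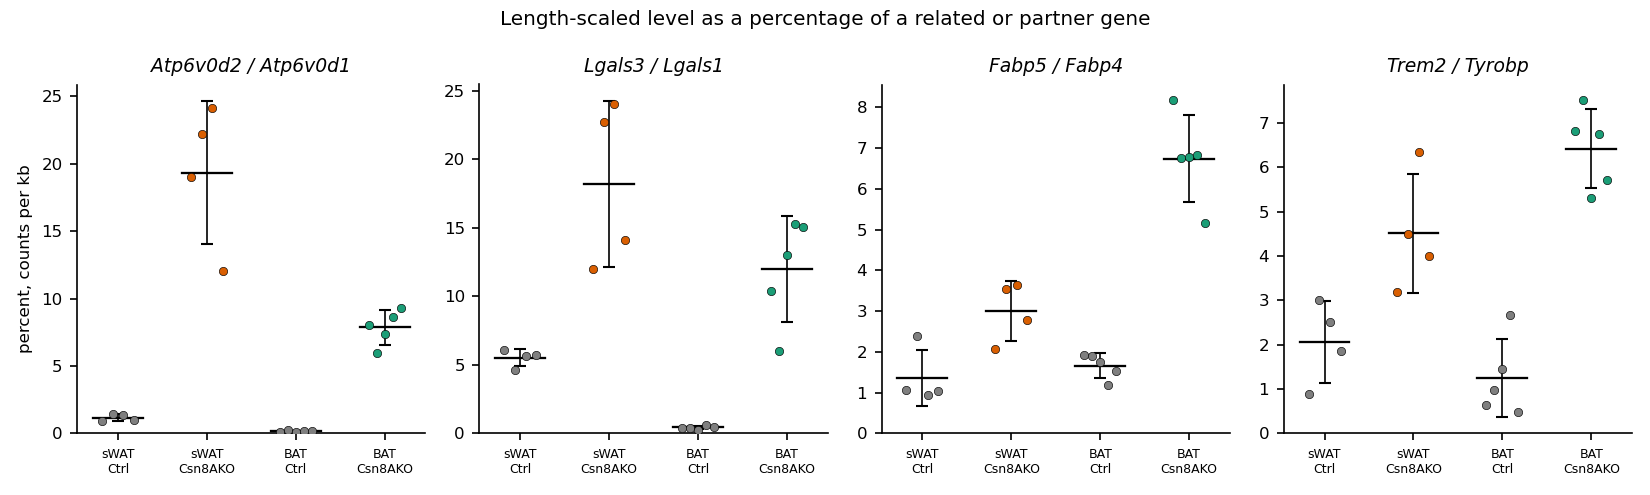
Length-scaled level of *Atp6v0d2*, *Lgals3*, *Fabp5* and *Trem2* as a percentage of *Atp6v0d1*, *Lgals1*, *Fabp4* and *Tyrobp* (y axes, starting at 0) in every library; points are libraries, the line is the group mean and bars are SD. *Atp6v0d2*, *Lgals3* and *Trem2* separate the genotypes in both depots in this measure, and *Fabp5* does so in BAT.

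*Trem2* signals through the adaptor *Tyrobp* and the kinase *Syk*, and both genes rose. *Tyrobp* was 1.44 ± 0.26 higher in sWAT (adjusted p = 0.0134) and 2.04 ± 0.18 in BAT (adjusted p = 3.57e-06), and *Syk* 0.97 ± 0.22 (adjusted p = 0.0347) and 2.06 ± 0.18 (adjusted p = 3.57e-06). Of the 8 genes listed for this pathway, 2 were called higher in sWAT and 7 in BAT. The adaptor serves other receptors as well, and *Trem2* ran at 0.878% to 3.01% of *Tyrobp* in Ctrl sWAT and 3.20% to 6.35% in Csn8AKO. *Apoe*, which encodes a lipoprotein ligand of TREM2, did not pass in sWAT (-0.12 ± 0.23) and rose in BAT (0.71 ± 0.15, adjusted p = 0.00307). CD11c pairs with the beta2 subunit *Itgb2*, which rose by 1.25 ± 0.24 in sWAT and 2.27 ± 0.15 in BAT. Of the 4 genes of this integrin family outside *Itgax*, 3 rose in sWAT and 4 in BAT, where *Itgad*, another alpha chain of macrophages, rose by 4.57 ± 0.50 (adjusted p = 1.48e-05) from a mean of 0.0529 CPM. *Itgad* passed the filter on low counts in BAT only with the Csn8AKO libraries. Among 8 tetraspanins other than *Cd9*, *Cd63*, a lysosomal one, rose in BAT (1.62 ± 0.10), as did the leukocyte genes *Cd37* (1.56 ± 0.21) and *Cd53* (1.68 ± 0.20). The close relative *Cd81* did not pass in either depot (-0.02 ± 0.17 and -0.06 ± 0.07), and *Tspan4* fell in both (-0.82 ± 0.13 and -0.98 ± 0.18).

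The osteopontin receptor *Cd44* rose by 1.37 ± 0.21 in sWAT (adjusted p = 0.0069) and 2.34 ± 0.18 in BAT (adjusted p = 1.64e-06), whereas its ligand *Spp1* stayed near the detection limit. Among 7 such receptors, 1 was called in sWAT and 4 in BAT, all higher. *Mmp9*, the other macrophage protease commonly followed in fat, did not pass (0.02 ± 0.34 and -0.30 ± 0.41). Of 8 tested matrix metalloproteinase and inhibitor genes in sWAT, *Timp1* was the 1 called (2.22 ± 0.55, adjusted p = 0.0462). In BAT 4 of 9 rose, including *Mmp14* (1.71 ± 0.23), *Mmp2* (1.34 ± 0.14) and *Timp2* (1.58 ± 0.11), genes that fibroblasts also make. All 6 fibroblast markers rose in BAT as well, with a summed level of 1009 to 1732 CPM in Ctrl and 2681 to 4602 CPM in Csn8AKO, and their part in those values was not tested.

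Genes that handle stored lipid beside *Lipa* moved in both directions. *Nceh1*, a neutral cholesteryl ester hydrolase of macrophages, rose by 1.90 ± 0.23 in sWAT (adjusted p = 0.00275) and 1.53 ± 0.15 in BAT (adjusted p = 5.35e-06). *Soat1*, which re-esterifies cholesterol, rose by 1.31 ± 0.18 (adjusted p = 0.00396) and 2.08 ± 0.16 (adjusted p = 1.08e-06). The adipocyte lipases *Pnpla2* (-1.28 ± 0.25 and -0.37 ± 0.12) and *Ces1d* (-2.93 ± 0.30 and -1.85 ± 0.18) fell in both depots. *Lpl* did not pass (-0.21 ± 0.33 and 0.40 ± 0.20). Over 24 lysosomal genes 2 were called higher in sWAT, *Gla* (1.06 ± 0.20) and *Gusb* (0.53 ± 0.12), and in BAT 15 were higher and 1 lower, with medians of 0.26 and 0.32. In BAT 8 of these 24 genes had no call, as *Lipa* had none.

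Of the MiT/TFE transcription factors, which act on lysosomal genes, *Mitf* rose by 0.71 ± 0.17 in sWAT (adjusted p = 0.0390) and 0.72 ± 0.16 in BAT (adjusted p = 0.00312). *Tfec*, the macrophage-restricted member, rose in BAT (2.72 ± 0.34, adjusted p = 4.94e-05) and was at 1.37 ± 0.36 in sWAT (adjusted p = 0.0594). The BAT mean of *Tfec* was 0.132 CPM in Ctrl and 0.840 CPM in Csn8AKO, and it passed the filter on low counts there only with the Csn8AKO libraries. *Tfeb* rose by 0.34 ± 0.10 in BAT and *Tfe3* did not pass in either depot (0.10 ± 0.14 and 0.03 ± 0.08). *Atp6v0d2* is also an osteoclast and giant cell gene. Among 12 genes of multinucleated macrophages, *Dcstamp*, a fusion receptor, rose in sWAT (2.10 ± 0.45, adjusted p = 0.0270) with *Tnfrsf11a*, which encodes RANK (1.00 ± 0.23, adjusted p = 0.0364), and *Tcirg1*. *Dcstamp* had a mean of 0.364 CPM in Ctrl sWAT and 1.60 CPM in Csn8AKO sWAT, and passed the filter only with the Csn8AKO libraries. In BAT *Ctsk* (1.23 ± 0.15), *Itgb3* (1.40 ± 0.23), *Tnfrsf11a* (1.5 ± 0.19) and *Tcirg1* rose, and *Acp5* did not pass in either depot (-0.06 ± 0.18 and -0.02 ± 0.11).

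Of 25 further lipid-associated genes, 6 were called higher in sWAT, among them *Capg*, an actin-capping protein (1.40 ± 0.20, adjusted p = 0.00531), *Nceh1* and *Soat1*. In BAT 17 were higher and 1 lower, those with the smallest adjusted p being *Abcg1*, a sterol exporter (1.67 ± 0.09, adjusted p = 5.48e-08), *Cd63* and *Capg* (2.55 ± 0.16). Their median was 0.46 in sWAT and 0.63 in BAT. Of 16 core macrophage genes, 8 rose in sWAT and 13 in BAT, with medians of 0.83 and 1.5, and with *Lyz2*, lysozyme, at 1.45 ± 0.25 and 2.81 ± 0.18. Of 12 genes of resident macrophages, 2 rose in sWAT, *Ccl8* (1.93 ± 0.35) and *Mrc1* (0.84 ± 0.21), and 5 of the 11 tested in BAT, where *Mrc1* rose by 1.24 ± 0.11. The member genes and these lists share tissue RNA and libraries, and no difference between lists was tested.

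Markers of other cells also differed. Adipocyte markers summed to 15430 to 19171 CPM in Ctrl sWAT and 4387 to 10522 CPM in Csn8AKO, and to 8704 to 10365 CPM and 7578 to 8874 CPM in BAT. Of their 9 genes 4 fell in sWAT, such as *Cfd*, adipsin (-1.46 ± 0.34). In BAT 2 fell and 1 rose, *Retn*, which encodes resistin (3.19 ± 0.31, adjusted p = 5.78e-05), from 11.5 ± 4.97 to 105 ± 26.9 CPM (SD, n = 5 each). Monocyte genes rose for 1 of 5 in sWAT (*Chil3*, 2.90 ± 0.52) and 3 of 4 tested in BAT, among them *Ccr2* (1.66 ± 0.17). *Chil3* had a mean of 0.173 CPM in Ctrl sWAT and 1.36 CPM in Csn8AKO sWAT, and passed the filter on low counts only with the Csn8AKO libraries. Mast cell genes rose for 4 of 5 tested in BAT, including *Cpa3* (2.57 ± 0.23), which was at 1.54 ± 0.46 in sWAT (adjusted p = 0.098). T cell genes rose for 3 of 7 in BAT, *Cd4* the most (2.03 ± 0.23, adjusted p = 2.26e-05), with a summed level of 2.74 to 4.29 CPM in Ctrl and 5.99 to 10.7 CPM in Csn8AKO. Proliferation genes rose for 4 of 6 in BAT, such as *Top2a*, a topoisomerase (1.23 ± 0.31), and *Aurkb*, a mitotic kinase (1.27 ± 0.28). Skeletal muscle markers reached 119 and 204 CPM in Csn8AKO BAT replicates 1 and 5, against 3.06 to 14.0 CPM in the other BAT libraries. The part of each of these in the member values was not tested.

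Within a group, some of the members varied together. After the group mean was taken out, *Trem2* and *Gpnmb* had a Pearson correlation of 0.83 over the 18 libraries, and *Trem2* with *Mmp12* and *Mmp12* with *Atp6v0d2* followed at 0.68 and 0.67. Of 45 pairs, 9 were over 0.5, and the median was 0.22. With the reference *Adgre1* the correlation was 0.77 for *Lgals3* and 0.63 for *Lipa*, each above its values with the other members. The rest ran from -0.37 (*Spp1*) to 0.43 (*Atp6v0d2*) with *Adgre1*. *Itgax* stood apart, at -0.46 with *Fabp5* and -0.24 with *Mmp12*. *Spp1* exceeded 0.5 with no member. Csn8AKO sWAT replicate 3 was the highest of its group for 8 of the 10 genes and replicate 4 the lowest for 8, and sWAT Ctrl replicate 1 was the lowest control for 8. The libraries share depth and ribosomal RNA differences, and sWAT Ctrl replicate 1 and Csn8AKO replicate 2 were high in B cell markers. In the BAT controls *Trem2* had 6 to 28 counts, with replicate 4 highest for *Trem2* and for *Gpnmb*. These values therefore describe co-variation in these samples.

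**Figure D5:**
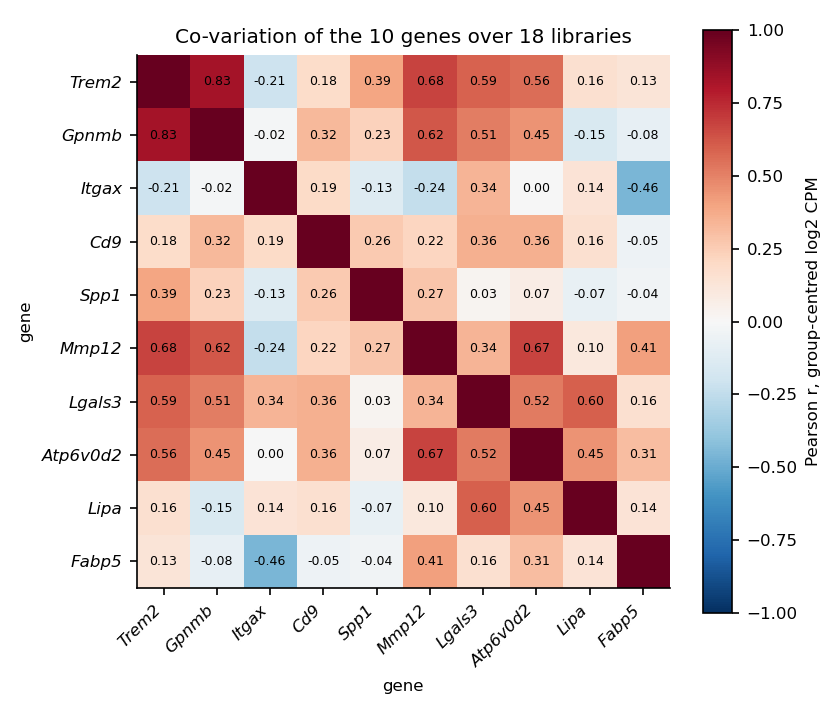
Pearson correlation of group-centred log2 CPM over 18 libraries for each pair of the 10 genes (both axes); color gives r from -1 to 1. Pairs among *Trem2*, *Gpnmb*, *Mmp12* and *Atp6v0d2* run from 0.45 to 0.83, the highest being *Trem2* with *Gpnmb*. *Lgals3* is at 0.51 to 0.60 with *Trem2*, *Gpnmb*, *Atp6v0d2* and *Lipa*, and *Itgax* with *Fabp5* is the coldest pair at -0.46.

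Over 13465 genes expressed in both depots, the gene closest to *Trem2* was *Gpnmb*, followed by *Rassf4* (r = 0.82) and *Gm6394* (0.80), and *Trem2* was likewise the closest to *Gpnmb*, ahead of *Lrp4* (0.79) and *Tbc1d16* (0.77). For *Atp6v0d2* the closest were *Cfap100* (0.86), *Cytl1* (0.82) and *C79130* (0.80). Higher values, picked out after they were seen, belonged to *Itgax* with *Pou2f2*, a transcription factor of lymphocytes (0.92), and to *Fabp5* with *Acaca*, which makes the malonyl-CoA for fatty acid synthesis (0.95), and *Tkt*, transketolase (0.94). The sWAT libraries high in B cell markers were also the highest of their genotype for *Itgax*, and its correlation without them was not computed.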

How the data were processed

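RNA was measured by bulk sequencing in 8 sWAT and 10 BAT libraries. The authors depleted ribosomal RNA, aligned paired reads of 150 bases with STAR to GRCm38 and counted unique reads per Ensembl gene with featureCounts; the deposited values used here are these raw counts, one table per sample. Low counts were even in 64.9% to 74.4% of genes with 1 to 20 counts. Deposited CPM, FPKM and TPM columns were not used. Counts were fitted per depot with edgeR 4.0.16 (R 4.3.3; filterByExpr with a minimum of 10 counts, TMM, robust quasi-likelihood test, Benjamini-Hochberg adjustment, threshold 0.05); Ctrl BAT was set against Ctrl sWAT in one fit of all 18 libraries, planned as a test and given for the members as a description. Shown CPM are TMM-scaled, log2 CPM has a prior count of 0.5, and errors of fitted values are SE. Excess is the difference between genotypes of the mean log2 ratio to *Adgre1*. Named genes were the members, *Adgre1*, *Cd68*, *Cops8*, fixed partner genes and up to 3 called genes per list and depot with the smallest adjusted p; further genes in the text that lie outside this rule were named after their values were seen. The members and lists were chosen with earlier results of these data known. The methods give sample numbers in mice. No pair of libraries agreed within sampling noise. Alternatives were DESeq2 1.42.0, limma 3.58.1, other scalings and filters, a replicate block and leaving out libraries.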

Additional observations from a re-analysis of the deposited data

How the results depend on the processing

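The genes called in sWAT (1000) depended on the processing: 434 with library size alone, 1946 with DESeq2, 2155 with limma voom and quality weights, 2463 with all 4 groups in one fit, and 326 to 1477 when 1 library was left out. Further alternatives were added after seeing the data: without the 4 libraries over 15% ribosomal RNA edgeR called 0 (1480 at an unadjusted p under 0.05, with 2 samples a group), and without the 2 libraries over 100 CPM of B cell markers 1820. With the replicate block 299 were called, and 16 of 31 comparison genes lost their call. Numbers in sWAT were shared without pairing, as same-numbered libraries correlated from -0.37 to 0.21 (BAT from -0.09 to 0.09). Differently numbered sWAT libraries correlated from -0.40 to 0.63, the highest being Ctrl replicate 1 with Csn8AKO replicate 2. Counts in BAT (5260 to 9003) and between the Ctrl groups (8587 to 12584) stayed within 1.5 times. The sWAT median log2 fold change of the members ran from 1.76 to 1.95 and the BAT median from 3.51 to 3.87. The median excess over *Adgre1* moved with the reference: with the mean of the core macrophage list it was 1.00 in sWAT and 2.56 in BAT, with *Cd68* 1.28 in BAT, and leaving out 1 BAT library gave 1.79 (Ctrl replicate 2) to 2.38 (Ctrl replicate 3). Of the alternative fold changes of single members 358 stayed within 1 SD and 2 did not, *Spp1* (4.10) and *Mmp12* (5.68) in sWAT without the ribosomal RNA-rich libraries; between the Ctrl depots, without sWAT Ctrl replicate 3 *Spp1* moved from -2.03 to -1.19. The cause of these shifts was not tested. Depth limits *Spp1*, at 10 counts or fewer in each Ctrl library.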
